A study of Mus musculus with 8 samples.

Results

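This comparison set RNA levels in mouse bone marrow progenitor cultures that had been fed 4-thiouridine (s4U), a uridine analog that cells build into the RNA they make, against levels in cultures labelled as unfed. Of 27710 genes listed in the count files, 15002 reached 1 CPM (counts scaled to the size of the library) in at least 2 of the 8 libraries and were kept, and 12083 of these are protein-coding. A gene was described as shifted when its log2 CPM lay on the same side of the unlabelled library of its own genotype in all 6 fed libraries. By that rule 2386 protein-coding genes were higher (19.7%) and 2352 were lower (19.5%). A smaller set, 82 higher (0.679%) and 139 lower (1.15%), differed by at least 0.5 on the log2 scale in every fed library. These sets were chosen by the contrast itself, so their shifts are a description and carry no test.

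The series asked how loss of ALKBH5, an eraser of the RNA mark N6-methyladenosine (m6A), bears on the stability of metabolic transcripts. Marrow was depleted of cells with mature lineage markers and cultured with serum and hematopoietic cytokines. The groups were wild-type (WT) cells without s4U (1 library), WT cells fed 100 µM s4U for 2 h (3 libraries), and the same pair of conditions (1 and 3 libraries) from mice with floxed Alkbh5 and Vav-iCre, here called Alkbh5-deficient. The Vav promoter drives the recombinase in blood cells. The sources used here give no strain background or age, nor whether the unlabelled cultures came from the same marrow. All 8 libraries are described under 1 protocol of TimeLapse chemistry, which recodes s4U so that it is read as cytosine, and 1 stranded total RNA kit. Only gene counts were analysed here, so the values are RNA levels and no lifetime was estimated.

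Alkbh5 had 1263 counts in the unlabelled WT library and 1166, 1479 and 1061 in the fed ones, against 1 count in the unlabelled and 0, 1 and 1 in the fed Alkbh5-deficient libraries. Gene counts ran from 5723245 to 8615997 per library. Both unlabelled libraries held Xist, made from the inactive X chromosome, and Ddx3y, made from the Y chromosome, whereas each fed library held 1 of the 2. The effect of s4U and that of other starting cells, or of pooling, cannot be told apart. Replicate 1 of both genotypes stood apart, with 60.9% and 61.5% of reads in genes against 47.2% to 50.3% in the other 6 libraries. WT fed replicate 3 stood apart in another way: 14.2% of its gene counts fell on Gm26917 against 6.33% to 8.34% elsewhere. The 3 fed libraries of a genotype are all read against 1 unlabelled library, so their shifts share its error.

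The level of an mRNA is set by how fast it is made and how fast it is degraded. Transcripts of housekeeping genes, such as those for ribosomal proteins and respiratory chain subunits, are in general long-lived. Transcripts of signal-induced regulators are in general short-lived, many of them through AU-rich elements in the 3′ untranslated region (UTR), so a short block of synthesis or decay shows first in them. Thiolated nucleosides are known to disturb ribosomal RNA processing at high doses.

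No protein-coding transcript passed the test of fed against unlabelled libraries with the genotype as a covariate. Of 15002 genes, 4 passed at an adjusted p of 0.05 (0.0267%, edgeR quasi-likelihood test), all of them higher and all annotated as processed pseudogenes (Gm12715, Hist1h2al, Gm8543 and Actg-ps1). Among the 12083 protein-coding genes 0 passed (0.0%), with a smallest adjusted p of 0.147 in edgeR, while 2481 had an unadjusted p under 0.05, of which 1232 were higher and 1249 lower. Other models called many more. DESeq2 called 572 protein-coding genes, 298 higher (2.47%) and 274 lower (2.27%), and all 572 had the same direction in every fed library. With the replicate number as a block, edgeR called 1284, of which 625 were higher (5.17%) and 659 lower (5.45%), and 547 genes were called by both. The unlabelled libraries carry no replicate block, so that fit measures spread only after removing what same-numbered fed libraries share. It also called Ddx3y (edgeR adjusted p with the block = 0.00209), whose level followed the sex of the library. Its calls are therefore given as a further value beside each gene and not as the result. The labels do not tie replicates to animals. Xist was at 17471 and 13896 counts in fed replicate 2 of the 2 genotypes and at 0 to 2 counts in replicates 1 and 3, so cells of at least 2 animals of different sex lie behind the fed libraries of each genotype. Beyond that the p-values measure the spread between these libraries, of which an unknown share may be technical.

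Transcripts chosen in 1 genotype mostly shifted the same way in the other, which has its own unlabelled library. Of 512 protein-coding genes at least 0.5 higher in all 3 WT fed libraries, 72.5% were higher in all 3 Alkbh5-deficient fed libraries, where 28.8% of all protein-coding genes were. Of 536 chosen as lower in WT, 81.7% were lower in the Alkbh5-deficient ones (28.7% of all). The reverse choice gave 64.7% of 272 higher genes (30.1% of all in WT) and 77.8% of 315 lower ones (27.6% of all). Over genes, which do not count as replicates, the fold changes of the 2 genotypes had a Spearman rho of 0.69, and 79.9% had the same sign. The test of a different response by genotype called 0 genes (0.0%; edgeR interaction term, smallest adjusted p = 1.00, 26 genes with an unadjusted p under 0.05, and 0 by DESeq2). The unlabelled libraries of the 2 genotypes were the closest of all pairs, with a chi-square of 3.12 per gene against 6.07 for the next pair, so a difference between the unlabelled pair and the fed libraries in source or preparation would appear in both genotypes and cannot be told apart from feeding.

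**Figure D1:**
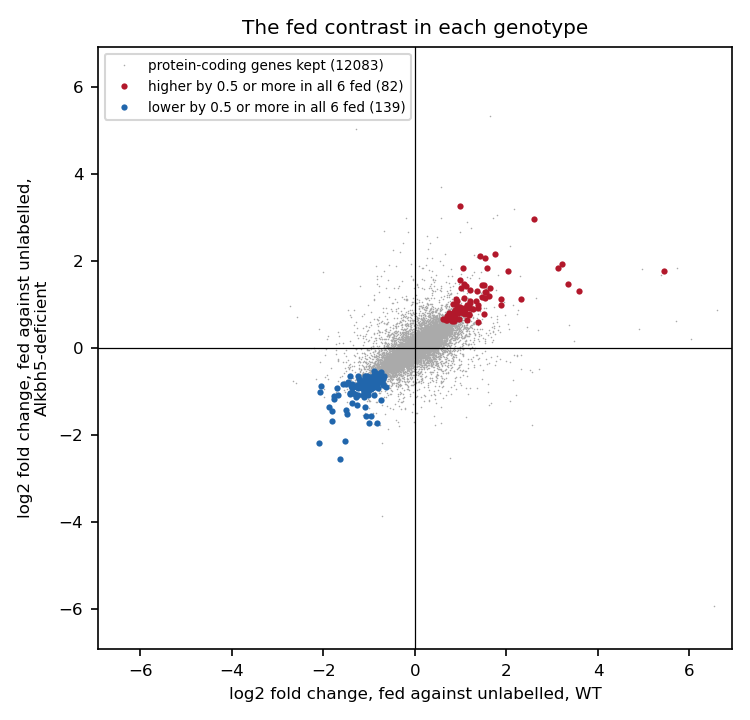
Log2 fold change of fed against unlabelled libraries for 12083 protein-coding genes, in WT (x axis) and Alkbh5-deficient cells (y axis). The 82 genes at least 0.5 higher in every fed library (red) and the 139 lower (blue) lie in opposite corners of a cloud that runs along the diagonal, with a Spearman rho of 0.69.

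The leading higher transcripts included genes of the endoplasmic reticulum, mitochondria, lysosome and leukocyte surface. Ranked by the smallest shift in any fed library, the first 15 protein-coding genes averaging 10 CPM or more and without a near-identical copy were Sdf2l1, Pafah2, Itgb7, Gtf3a, Ethe1, Prdx5, Rogdi, Mospd3, Mpnd, Ppfia4, Pld4, Bad, Prtn3, Mx1 and Tcf19. Their log2 fold changes ran from 0.64 to 1.14 with edgeR adjusted p between 0.165 and 0.177. All 15 passed in edgeR with the replicate block (adjusted p from 0.0223 to 0.0498), and 13 passed in DESeq2. The genes were chosen by the same contrast, so these calls are no separate support.

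Sdf2l1, which encodes a protein of the endoplasmic reticulum chaperone complex, led the list (ENSMUSG00000022769.9, chromosome 16, 17130138 to 17132383, minus strand). Its RNA stood at 35.9 CPM in the unlabelled WT library, 84.3, 68.2 and 80.6 CPM in WT fed replicates 1 to 3, 37.3 CPM in the unlabelled Alkbh5-deficient library and 79.8, 65.9 and 63.6 CPM in the fed ones. The mean of the fed replicates was 77.7 ± 8.43 CPM for WT and 69.8 ± 8.80 CPM for Alkbh5-deficient cells (SD, n = 3 each). No fed library overlapped an unlabelled one, which the ranking by smallest shift largely fixed in advance for every leading gene. The log2 fold change was 1.01 ± 0.16 (SE, edgeR adjusted p = 0.165, 0.0223 with the block). Itgb7, the integrin beta 7 subunit that guides leukocytes to the gut, had 95.8 against 283, 152 and 171 CPM in WT and 93 against 221, 148 and 145 CPM in Alkbh5-deficient cells. Prdx5, a peroxiredoxin that reduces peroxides in mitochondria and the cytosol, had 87.1 against 239, 133 and 177 CPM in WT and 85.2 against 214, 135 and 129.8 CPM in Alkbh5-deficient cells. In both genes, as in Sdf2l1 above and Ethe1 and Prtn3 below, replicate 1 of each genotype was the highest library of that genotype. Ethe1, a mitochondrial enzyme of sulfide breakdown, had 16.4 against 45.1, 25.2 and 33.2 CPM in WT and 15.4 against 49.5, 25.4 and 27.6 CPM in Alkbh5-deficient cells. The pro-apoptotic BCL2 partner Bad had 7.75 against 17.1, 15.3 and 24.1 CPM in WT and 10.2 against 25.1, 16.4 and 15.1 CPM in Alkbh5-deficient cells. Gtf3a, the factor that directs 5S ribosomal RNA transcription, had 25.6 against 47.9, 39.3 and 49.9 CPM in WT and 25.5 against 53.7, 40.9 and 39.5 CPM in Alkbh5-deficient cells. Log2 fold changes of these 5 genes were 0.98 ± 0.27, 0.99 ± 0.26, 1.11 ± 0.31, 1.07 ± 0.28 and 0.82 ± 0.18 (SE).

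The other 9 leading higher genes lay between 0.64 for Mx1, an interferon-induced gene, and 1.14 for Pld4, an endolysosomal nuclease. Prtn3, proteinase 3 of neutrophil primary granules, had 268 against 667, 419.5 and 636 CPM in WT and 300.5 against 638, 472 and 441 CPM in Alkbh5-deficient cells, a log2 fold change of 0.94 ± 0.23 (SE). A further 6 genes ranked among them but have a near-identical copy, so their counts are uncertain: Ftl1-ps1 (1.51), Gng10 (1.16), Scp2 (0.95) and the histone genes Hist2h3c2 (1.79), Hist2h2aa2 (1.39) and Hist1h3h (0.88).

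The leading lower transcripts included genes for transcription, RNA 3′ end formation, ubiquitin activation and membrane traffic. The first 15 were Uba6, Lin54, Brwd3, Cstf3, Gk, Taf4b, Nbeal1, Fam126b, Ell2, Tmem170b, Dennd4a, Shcbp1, Ptpn4, Slc7a11 and Papolg, with log2 fold changes from -1.33 to -0.95 and edgeR adjusted p between 0.147 and 0.166. All 15 passed in edgeR with the replicate block (adjusted p from 0.0223 to 0.0286) and in DESeq2. These genes too were chosen by the contrast that those fits test, so the calls are no separate support. Cstf3 had the smallest p of the 15.

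Cstf3 encodes a subunit of the cleavage stimulation factor that cuts pre-mRNA at its poly(A) site (ENSMUSG00000027176.8, chromosome 2, 104590523 to 104665429, plus strand). It stood at 65.7 CPM in the unlabelled WT library, 24.3, 36.9 and 20.6 CPM in WT fed replicates 1 to 3, 69 CPM in the unlabelled Alkbh5-deficient library and 24.5, 27.9 and 29.98 CPM in the fed ones. All 6 fed libraries lay below both unlabelled ones, and the log2 fold change was -1.29 ± 0.20 (SE, edgeR adjusted p = 0.147, 0.0223 with the block). Ell2, an elongation factor of RNA polymerase II, had 137 against 57.5, 73.2 and 46.2 CPM in WT and 123 against 61.6, 62.9 and 73.7 CPM in Alkbh5-deficient cells, a log2 fold change of -1.06 ± 0.17 (SE). Papolg, a poly(A) polymerase, had 21.8 against 6.65, 12.1 and 9.71 CPM in WT and 20.4 against 11.4, 11.1 and 12.6 CPM in Alkbh5-deficient cells. These 3 genes act in making or finishing mRNA. In all 3 every fed library lay below both unlabelled ones, which the ranking by smallest shift largely fixed in advance.

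Uba6, an E1 enzyme that activates ubiquitin and FAT10, had 31.4 against 13.5, 16.9 and 5.24 CPM in WT and 34 against 11.8, 14.8 and 15.4 CPM in Alkbh5-deficient cells. Lin54, the DNA-binding subunit of the DREAM complex that represses cell cycle genes, had 61 against 33.4, 30.8 and 18.8 CPM in WT and 61.5 against 33.5, 32 and 32.9 CPM in Alkbh5-deficient cells. Brwd3, a bromodomain protein of the X chromosome, had 52.9 against 24.3, 28.5 and 16.5 CPM in WT and 54.1 against 28, 29.1 and 29.98 CPM in Alkbh5-deficient cells. In each of them WT fed replicate 3, the library rich in Gm26917, was the lowest, and without it the log2 fold changes were -1.17, -0.92 and -0.94. Dennd4a, an activator of Rab10, was the most abundant of the 15, at 648 against 279, 385 and 206 CPM in WT and 664 against 327, 318 and 405 CPM in Alkbh5-deficient cells. Slc7a11, the cystine importer, had 53.1 against 26.4, 28.2 and 14.8 CPM in WT and 48 against 27.8, 29.8 and 28.5 CPM in Alkbh5-deficient cells, and Gk, glycerol kinase, had 33.5 against 14.3, 19.2 and 13.2 CPM in WT and 31.3 against 15.8, 16.3 and 15.7 CPM in Alkbh5-deficient cells. In these 6 genes every fed library lay below both unlabelled ones, which again was largely fixed by the ranking.

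**Figure D2:**
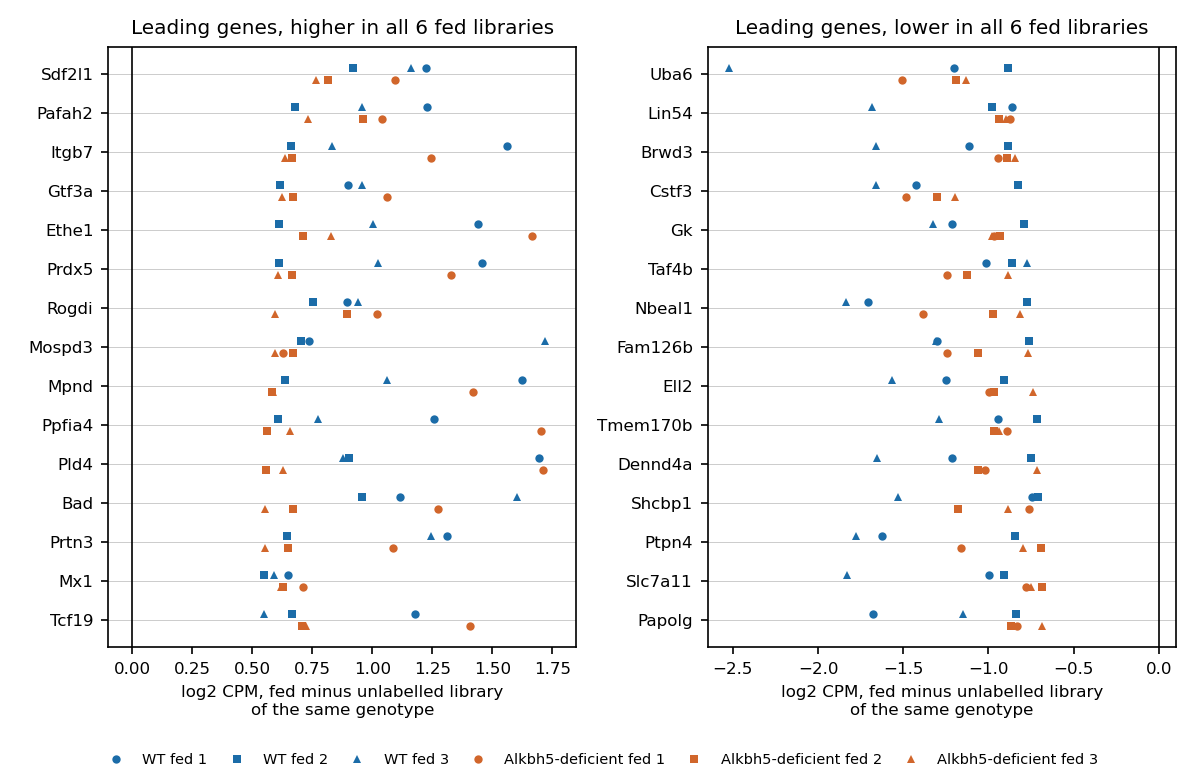
Shift of the 15 leading higher (left) and 15 leading lower (right) protein-coding genes, as log2 CPM in each fed library minus log2 CPM in the unlabelled library of the same genotype. Every point lies at least 0.5 from 0, replicate 1 (circles) is the farthest in many higher genes, and WT fed replicate 3 (blue triangles) is the farthest in most lower ones.

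Near the limit of 0.5, Gstp1 (0.502) and Phpt1 (0.505) were the higher genes just inside, and Lrsam1 (0.499) and Slc39a11 (0.496) just outside. Among lower genes, Gpr21 (-0.500) and Oip5 (-0.501) were just inside, and Swt1 (-0.499) and Tmem33 (-0.498) just outside.

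The 2 directions differed in base composition and length, which the choice of genes did not use. For 1 transcript per gene in GENCODE M21, the 81 higher genes with a usable transcript had a median GC content of 57.1% and a spliced length of 1456 bases, the 134 lower genes 41.5% and 4394 bases, and all 12016 genes 50.3% and 3016 bases. Coding stretches of 90 bases, picked because their base composition is the nearest to that of the whole transcript, show the contrast. G and C are in capitals, and all positions are those of GENCODE M21.
The first 3 leading higher genes read
Sdf2l1 (GRCm38, chr16:17130576-17130665, minus strand, exon 3): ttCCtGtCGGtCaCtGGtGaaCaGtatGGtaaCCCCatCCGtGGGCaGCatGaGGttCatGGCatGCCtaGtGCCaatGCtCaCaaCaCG
Pafah2 (GRCm38, chr4:134419894-134419983, plus strand, exon 9): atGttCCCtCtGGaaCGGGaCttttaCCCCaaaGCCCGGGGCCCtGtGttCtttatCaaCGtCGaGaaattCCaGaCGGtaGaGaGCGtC
Itgb7 (GRCm38, chr15:102224309-102224398, minus strand, exon 4): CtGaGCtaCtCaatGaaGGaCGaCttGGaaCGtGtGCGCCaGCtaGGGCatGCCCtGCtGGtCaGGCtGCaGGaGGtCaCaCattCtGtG
The first 3 leading lower genes read
Uba6 (GRCm38, chr5:86120551-86120640, minus strand, exon 30): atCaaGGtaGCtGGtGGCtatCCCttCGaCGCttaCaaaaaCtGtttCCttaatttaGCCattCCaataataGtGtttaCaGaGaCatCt
Lin54 (GRCm38, chr5:100485317-100485406, minus strand, exon 2): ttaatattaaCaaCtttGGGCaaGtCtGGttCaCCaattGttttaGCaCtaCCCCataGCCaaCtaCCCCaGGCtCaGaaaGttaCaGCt
Brwd3 (GRCm38, chrX:108743079-108743168, minus strand, exon 41): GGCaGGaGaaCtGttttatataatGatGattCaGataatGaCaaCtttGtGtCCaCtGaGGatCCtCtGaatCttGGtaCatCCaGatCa
The stretches of Sdf2l1, Pafah2 and Itgb7 held 54.4%, 53.3% and 57.8% G and C, and those of Uba6, Lin54 and Brwd3 held 38.9%, 42.2% and 38.9%. Thymine in these DNA letters marks the uridine of RNA, which s4U can replace. It made up 23.3%, 24.4% and 21.1% of the former and 32.2%, 27.8% and 31.1% of the latter.

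Over all protein-coding genes the same gradient ran through every fed library. When genes were cut into 5 equal classes by GC content, 48.7% of the lowest class were lower in all 6 fed libraries and 2.45% higher, and in the highest class 1.41% were lower and 39.0% higher. The median shift from the lowest to the highest class went from -0.40 to 0.31, -0.23 to 0.21 and -0.78 to 0.64 in WT fed replicates 1 to 3. In Alkbh5-deficient replicates it went from -0.34 to 0.21, -0.36 to 0.26 and -0.20 to 0.14. WT fed replicate 3 had the steepest gradient, and it was present without that library. Across 12016 genes, described without a test, the fold change had a Spearman rho of 0.55 with GC content, -0.44 with thymine content, -0.36 with spliced length, -0.31 with 3′ UTR length and -0.25 with coding length. Length and GC each showed at like values of the other. With 3 equal classes of each measure, 55.3% of the long transcripts with low GC were lower and 46.8% of the short ones with high GC were higher, while short ones with low GC had 21.5% lower and 8.38% higher.

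**Figure D3:**
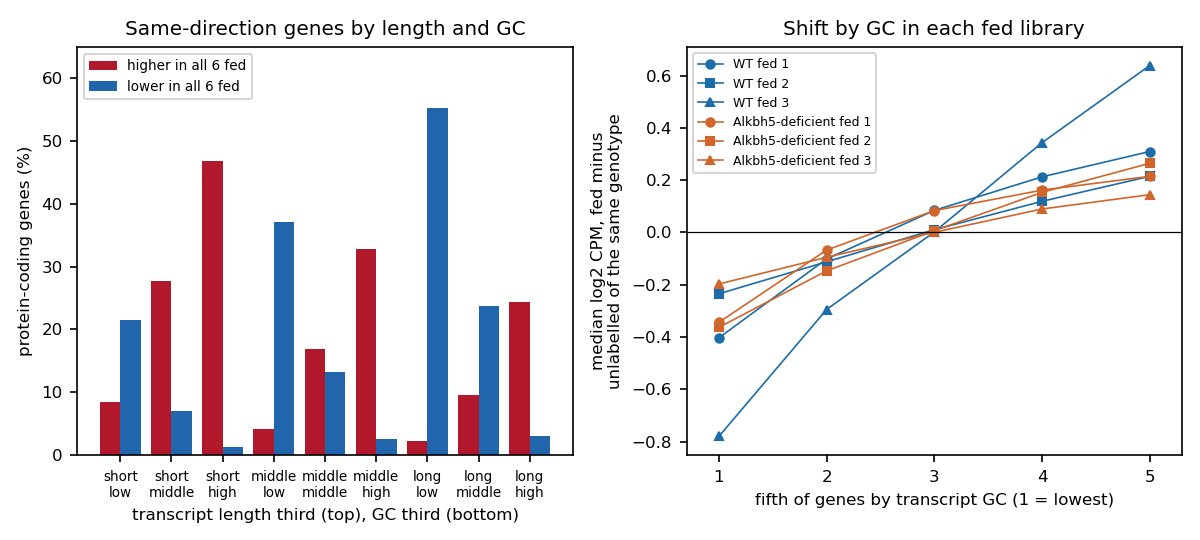
Left, percent of protein-coding genes that were higher (red) or lower (blue) in all 6 fed libraries, in 3 equal classes each of spliced length and GC content. Right, median log2 CPM of each fed library minus its unlabelled library, in 5 equal classes of GC content. Lower genes peak among long transcripts with low GC (55.3%), higher genes among short ones with high GC (46.8%), and all 6 lines rise, WT fed replicate 3 the most.

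A core motif of AU-rich elements was more common in the lower transcripts. The 7 bases TATTTAT, searched on the transcript strand of the 3′ UTR, occurred in 52.2% of the 134 lower genes, 14.1% of the 78 higher genes with a 3′ UTR and 28.5% of all. Among the leading genes 10 of 15 lower ones held it and 1 of 15 higher ones, Mx1. Sites of the first 3 lower genes are shown with the 7 bases in capitals.
Uba6 (GRCm38, chr5:86111911-86111937, minus strand, exon 33): acctttatttTATTTATctggaagtct
Lin54 (GRCm38, chr5:100442447-100442473, minus strand, exon 13): ttgtgatgtgTATTTATatacagtgtg
Brwd3 (GRCm38, chrX:108742372-108742398, minus strand, exon 41): ctgaagtataTATTTATactgcagttt
Longer 3′ UTRs hold more sites by length alone, so genes were compared within 5 equal classes of 3′ UTR length. In the longest class 40.2% of genes with a site were lower against 26.4% without, and in the shortest 14.0% against 9.45%. The share was higher with a site in each of the 5 classes. These letters are also rich in A and T, and base composition was not held constant here. A match is a description and not shown to be a binding site.

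Transcripts of protein synthesis were higher as a group. Of 83 cytosolic ribosomal protein genes kept, 63 (75.9%) were higher in all 6 fed libraries and 0 were lower, with a median log2 fold change of 0.42, against 19.7% and a median of 0.04 over all protein-coding genes. None passed in edgeR, 27 passed with the replicate block and 17 in DESeq2, where 5.17% and 2.47% of all protein-coding genes were called higher. Rplp0, the stalk protein of the large subunit, had 1568 against 3063, 2289.5 and 3096 CPM in WT and 1699.7 against 3138, 2464 and 2298 CPM in Alkbh5-deficient cells, a log2 fold change of 0.74 ± 0.19 (SE). Rps6, the small subunit protein phosphorylated by S6 kinase, had 731 against 1254, 1022 and 1183 CPM in WT and 728 against 1310.5, 1066 and 1024 CPM in Alkbh5-deficient cells (0.65 ± 0.16, SE). Many of these genes have processed pseudogenes, Rplp0 and Rps6 included, so single counts are uncertain. Of 36 translation factors 22 were higher and 5 lower (median 0.26). Eef2, the factor that moves the ribosome along mRNA, had 2489 against 4377, 3232 and 4469 CPM in WT and 2461 against 4339, 3523 and 3270.3 CPM in Alkbh5-deficient cells, and the initiation factor genes Eif3a, Eif4a2, Eif4e, Eif2s2 and Eif5 were the lower ones. Mitochondrial ribosomal protein genes were less one-sided, with 27 of 78 higher and 5 lower (median 0.18), and Mrps24 had 0.72 ± 0.18 (SE).

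Energy metabolism shifted in the same direction. Over all protein-coding genes 19.7% were higher and 19.5% lower, and 5.17% were called higher with the block and 2.47% in DESeq2. Of 81 nuclear genes for oxidative phosphorylation 50 were higher (61.7%) and 1, Atp5md, was lower, with a median of 0.40, and 19 passed with the block and 14 in DESeq2. Ndufb11, an accessory subunit of complex I, had 36.1 against 74.3, 47.9 and 74.6 CPM in WT and 32.3 against 73.4, 52.6 and 50.8 CPM in Alkbh5-deficient cells (0.86 ± 0.22, SE). Of 24 tricarboxylic acid cycle genes 11 were higher and 1, Dld, lower (median 0.33), with Sdhc at 0.68 ± 0.18 and Sdhb at 0.61 ± 0.18 (SE). Of 38 proteasome subunits 20 were higher and 0 lower (median 0.25), with Psmb8, an immunoproteasome subunit, at 0.75 ± 0.23 (SE).

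In glycolysis 12 of 24 genes were higher (50.0%) and 1 was lower (4.17%), with a median of 0.45, against 19.7% and 19.5% over all protein-coding genes. The lower gene, Pfkp, encodes the platelet isoform of phosphofructokinase, the enzyme of the committed step (ENSMUSG00000021196.14, chromosome 13, 6579768 to 6648777, minus strand). It stood at 429 CPM in the unlabelled WT library, 276, 249 and 236 CPM in WT fed replicates 1 to 3, 418 CPM in the unlabelled Alkbh5-deficient library and 309.6, 262 and 267 CPM in the fed ones, and its log2 fold change was -0.67 ± 0.13 (SE, edgeR adjusted p = 0.166, 0.0223 with the block, 0.00249 in DESeq2). Pfkl, the liver isoform of the same enzyme (ENSMUSG00000020277.10, chromosome 10, 77986947 to 78010083, minus strand), went the other way, from 41.1 against 63.4, 68.6 and 82.9 CPM in WT and 41.4 against 55.9, 65.3 and 54.2 CPM in Alkbh5-deficient cells (0.64 ± 0.17, SE, edgeR adjusted p = 0.166, 0.0364 with the block, 0.0258 in DESeq2). Both were named from members with the same direction in all 6 fed libraries, and all 6 lay outside the unlabelled pair. Among the other members Aldoa, aldolase, had 0.74 ± 0.22 and Hk3, a hexokinase of myeloid cells, 0.92 ± 0.26 (SE). Of the pentose phosphate genes in the NRF2 list, Taldo1 had 0.75 ± 0.20 and Pgd 0.58 ± 0.15 (SE), while Slc7a11, another member, was among the leading lower genes. That list had 9 of 23 higher and 3 lower (median 0.20).

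The lists of signal-induced, short-lived transcripts held members of both directions, with more higher than lower ones in each list. Of 47 immediate early genes, which are switched on within minutes of a stimulus, 15 (31.9%) were higher and 1 (2.13%) was lower (median 0.24), against 19.7% and 19.5% over all protein-coding genes. Ppp1r15a, the phosphatase subunit that ends the integrated stress response, had 121 CPM in the unlabelled WT library, 186, 197 and 199 CPM in WT fed replicates 1 to 3, 106 CPM in the unlabelled Alkbh5-deficient library and 151, 181 and 164 CPM in the fed ones. Its log2 fold change was 0.66 ± 0.13 (SE, adjusted p in edgeR = 0.166, 0.0223 with the block). Fos, a subunit of AP-1, had 91.2 against 182, 183 and 208 CPM in WT and 105 against 128, 174 and 137 CPM in Alkbh5-deficient cells (0.76 ± 0.19, SE), and Maff, a small Maf factor, 20.3 against 31.6, 42 and 56.7 CPM in WT and 17.2 against 24.5, 34.3 and 34.5 CPM in Alkbh5-deficient cells (0.97 ± 0.25, SE). Nr4a3, an orphan nuclear receptor of the same list, was lower, with 381 against 196, 277 and 228 CPM in WT and 348 against 204, 243 and 235 CPM in Alkbh5-deficient cells (-0.66 ± 0.15, SE). Unstable regulators of growth and survival had 10 of 44 higher (22.7%), near that background, and 5 lower (11.4%, median 0.10), with Socs3 at 0.63 ± 0.19 and Cebpb at 0.74 ± 0.22 (SE). NF-kB feedback and cytokine genes had 4 of 38 higher (10.5%) and 3 lower (7.89%), both below it (median 0.18), with Nfkbia at 0.55 ± 0.17 and Tnip3 at -0.62 ± 0.21 (SE).

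Zinc finger genes were more often lower than higher. Of 316 genes with a Zfp symbol, most of which encode DNA-binding regulators, 129 (40.8%) were lower in all 6 fed libraries and 20 (6.33%) higher, with a median of -0.32, against 19.5% lower over all protein-coding genes. With the block 29 lower and 1 higher passed, and in DESeq2 10 and 0. Over all protein-coding genes the block called 5.45% lower and 5.17% higher, and DESeq2 2.27% and 2.47%. The 10 of 316 in DESeq2 are not far above that share. Zfp871 had 143 against 67.2, 86.6 and 53.6 CPM in WT and 136 against 72.7, 84.7 and 93.9 CPM in Alkbh5-deficient cells (-0.88 ± 0.19, SE), Zfp451 134 against 70.2, 94.1 and 74 CPM in WT and 138 against 75.1, 92.4 and 100.2 CPM in Alkbh5-deficient cells (-0.69 ± 0.16, SE), and 13 of the 139 genes lower by at least 0.5 carried a Zfp symbol. The median transcript of the list had a GC content of 44.8%.

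Genes for RNA production and decay were spread to both sides. Over all protein-coding genes 19.7% were higher and 19.5% lower. Of 56 genes of RNA polymerase II, elongation and termination 19 (33.9%) were lower and 11 (19.6%) higher (median -0.04). Beside Cstf3 and Ell2, the lower members included Pcf11, a termination factor, at 195 against 82.8, 117 and 98.7 CPM in WT and 183 against 74.8, 111 and 122 CPM in Alkbh5-deficient cells (-0.90 ± 0.19, SE), and Aff4, the scaffold of the super elongation complex, at -0.64 ± 0.13 (SE). Of 54 RNA decay factors 18 (33.3%) were lower and 8 (14.8%) higher (median -0.03). Cnot4, a ubiquitin ligase of the CCR4-NOT complex, had 68.9 against 32.4, 38 and 25.1 CPM in WT and 60.3 against 36.9, 26.6 and 41.6 CPM in Alkbh5-deficient cells (-0.95 ± 0.20, SE), the deadenylase Cnot6l -0.87 ± 0.20, and Xrn1, the 5′ to 3′ exonuclease, 79.4 against 35.8, 53.4 and 37.3 CPM in WT and 75.1 against 39.6, 50.6 and 54.5 CPM in Alkbh5-deficient cells (-0.78 ± 0.19, SE). Of 46 splicing regulators 16 (34.8%) were lower and 10 (21.7%) higher (median -0.08), with Rbm5 at -0.72 ± 0.15 (SE). Higher members included Cdk9, Cpsf1 and Hexim1 of the RNA polymerase II list, Upf1 and Khsrp for decay, and Ptbp1 and Srsf2 for splicing. Among 18 genes of the m6A machinery 8 were lower and 2, Fto and Rbm15b, higher (median -0.26). Ythdc2, an m6A-binding helicase, had -0.76 ± 0.20 and Mettl14, a subunit of the methyltransferase, -0.63 ± 0.20 (SE). After an adjustment of each library for GC content and transcript length, the balance turned in 3 of these 4 lists, to 15 higher and 12 lower for RNA polymerase II, 16 and 6 for splicing and 4 and 2 for m6A, while RNA decay had 9 and 12. All 12016 genes with features leaned higher after it, with 1944 higher and 1538 lower, a balance near that of the RNA polymerase II list.

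Replication-dependent histone transcripts, which lack poly(A) tails and are made in S phase, had 20 of 63 higher and 0 lower (median 0.34). Their median was 0.61 and 0.76 in replicate 1 of WT and Alkbh5-deficient cells, 0.57 in WT replicate 3, and 0.07 to 0.14 in the other 3 fed libraries. Cell cycle genes that are polyadenylated did not follow them, with 12 higher and 8 lower of 40 for DNA replication (median 0.09) and 7 and 11 of 40 for mitosis (median -0.18). Among mitotic genes the long Knl1 and Kif20b were lower (-1.13 ± 0.30 and -1.04 ± 0.28, SE) and the short Birc5 was higher (0.46 ± 0.16, SE). Chaperones of the endoplasmic reticulum had 9 of 25 higher and 3 lower (median 0.20), with Hyou1 at 0.58 ± 0.15 (SE) after Sdf2l1. Cytosolic chaperones had 7 of 27 higher and 2 lower (median 0.03). Against 19.7% higher and 19.5% lower over all protein-coding genes, p53 targets had 13.8% and 17.2% of 29, interferon response genes 12.5% and 15.6% of 32, and sterol synthesis genes 20% and 20% of 30, all near or below that background. ATF4 targets had 31.03% higher and 17.2% lower of 29. Of 19 genes for pyrimidine synthesis and for uridine uptake and salvage, the latter being the route by which s4U enters RNA, 5 were higher and 0 lower (median 0.28).

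Among cell type markers, those of neutrophils were higher in fed libraries more often than the 19.7% of all protein-coding genes. All 23 neutrophil genes had a fold change above 0, 11 (47.8%) were higher in all 6 fed libraries and 0 lower, with a median of 0.68. Their summed level was 5660 and 6427 CPM in the unlabelled libraries and 7607 to 14752 CPM in the fed ones, with replicate 1 of both genotypes on top. Without replicate 1 of both genotypes the median was 0.18. Elane, neutrophil elastase, had 403 against 986, 599 and 783 CPM in WT and 497 against 956, 684 and 718 CPM in Alkbh5-deficient cells (0.81 ± 0.22, SE). Monocyte and macrophage genes had 6 of 25 higher (24.0%), near that background, and 0 lower (median 0.28). Mast cell, basophil and eosinophil genes had 4 of 20 higher (20%), also near it, and 0 lower (median 0.32), with Prg2, eosinophil major basic protein, at 0.78 ± 0.19 (SE). In WT fed replicate 3 the medians of these 2 lists were -0.06 and -0.26. The block called 3 of 25 monocyte genes lower and 5 higher, against 5.45% and 5.17% of all protein-coding genes. Lymphoid markers were lower in some libraries only. The median of 21 B lineage genes was -1.20 and -0.90 in WT replicates 1 and 3 and -2.07 in Alkbh5-deficient replicate 1, and 0.05 to 0.23 in the other 3. Stem and progenitor genes had 4 of 27 higher and 2 lower (median 0.06). The 22 genes of stroma and endothelium summed to 3395 CPM in the unlabelled WT library and 8279, 4050 and 5079 CPM in the fed ones. In Alkbh5-deficient cells they summed to 3549 against 8754, 3871 and 4783 CPM. Their median shift was nevertheless -1.12 and -0.77 in replicate 1 of WT and Alkbh5-deficient cells, and 1 of 22 was higher in all 6 fed libraries. In these bulk libraries fewer cells of a type and less RNA per cell cannot be told apart. How far cell makeup entered the shifts of the other gene groups was not tested.

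**Figure D4:**
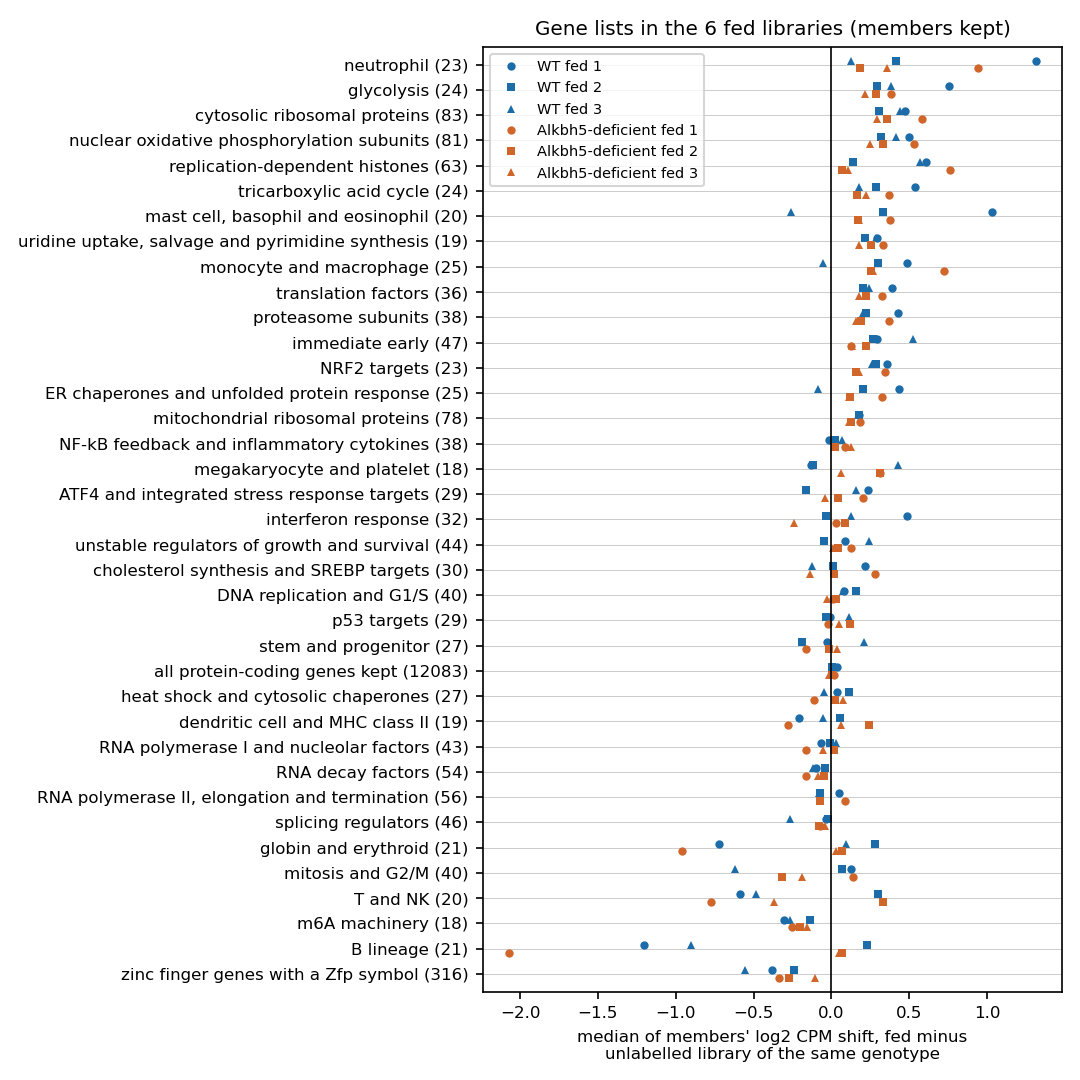
Median shift of the members of a gene list in each of the 6 fed libraries, as log2 CPM minus that of the unlabelled library of the same genotype, with the number of members kept in parentheses. The stroma and endothelium list and the sex-linked list are not drawn. Ribosomal protein, oxidative phosphorylation and glycolysis lists lie above 0 and Zfp genes below 0 in all 6 libraries, whereas replicate 1 (circles) lies far out in the neutrophil, B lineage and erythroid lists, and WT fed replicate 3 does so too in the B lineage list.

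Grouped by textbook RNA lifetime, the 381 genes of the 8 lists with long-lived transcripts had 202 higher (53.02%) and 14 lower (3.67%), with a median of 0.33. Over all protein-coding genes 19.7% were higher and 19.5% lower. The 8 lists were not alike: globin and erythroid genes had 0 of 21 higher and 1 lower (median -0.14). The 441 genes of the 4 lists with short-lived transcripts had 47 higher (10.7%) and 138 lower (31.3%), with a median of -0.16. Most of the lower genes came from the Zfp list. Without it the other 3 short-lived lists had 29 higher (22.7%, near the background) and 9 lower (7.03%) of 128 genes (median 0.19). The lists differ in base composition and length too. Cytosolic ribosomal protein transcripts had a median spliced length of 878 bases, immediate early transcripts a median GC content of 55.2%, and Zfp transcripts 44.8%.

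The group medians moved toward 0 in most lists when each library was adjusted for GC content, spliced length and 3′ UTR length. These 3 features accounted for 11.9% to 46.9% of the variance of the shifts over 12016 genes, with the highest share in WT fed replicate 3 and 26.3% in the next library. After the adjustment 1944 genes were higher and 1538 lower in all 6 fed libraries, and 36 and 28 by at least 0.5. Medians were 0.18 for ribosomal proteins, 0.20 for oxidative phosphorylation, 0.30 for glycolysis, 0.27 for the tricarboxylic acid cycle, 0.17 for proteasome subunits and 0.41 for neutrophil genes, against 0.03 over all genes with features. They were -0.10 for Zfp genes, 0.11 for immediate early genes, -0.03 for the m6A machinery and -0.03 for histone genes. Mitochondrial ribosomal proteins went from 0.18 to 0.0010, NRF2 targets from 0.20 to 0.0081 and ATF4 targets from 0.12 to -0.03. The long-lived and short-lived groups had medians of 0.16 and -0.05 on this scale. Mitotic genes turned from -0.18 to 0.13 and splicing regulators from -0.08 to 0.02. The adjustment was chosen after seeing the data, and a trend with base composition that arose in the library and one that arose in the cells cannot be told apart by it.

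Transcripts outside the protein-coding set had directions of their own. Of 758 kept genes of the class TEC, gene models still to be tested by experiment, 47.0% were lower in all 6 fed libraries and 1.06% higher (median -0.70). Most of them, 575, lie inside an intron of a protein-coding gene on the same strand, and 300 of these were lower and 0 higher. Their hosts had a median of -0.19, and 487 of 564 TEC genes with 1 kept host (86.3%) had a lower fold change than the host. Reads assigned to no gene made up 51.7% and 52.1% of all reads in the unlabelled libraries. They made up 38.3% and 37.6% in fed replicate 1 of WT and Alkbh5-deficient cells, and 48.9% to 50.3% in the other fed libraries. Processed pseudogenes, copies of spliced mRNA, were higher in 28.9% of 910 cases and lower in 4.62% (median 0.39). Reads of the pseudogenes cannot be told apart with certainty from those of their parent genes.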

How the data were processed

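Counts of reads per gene, whole numbers and not normalized, were deposited by the authors, 1 table per library for 8 libraries. The submitters' processing notes name cutadapt, HISAT2, STAR, Picard, HTSeq and DESeq2 and the builds mm10 and GRCm38, with no roles or versions. Lines that name no gene stayed out of library sizes, and reads assigned to no gene made up 37.6% to 52.1% of all reads. Genes with at least 1 CPM in 2 libraries were fitted with edgeR 4.0.16 (R 4.3.3, quasi-likelihood test, TMM factors, genotype and feeding as terms), and p-values were Benjamini-Hochberg adjusted over all 15002 genes at 0.05. Every adjusted p without another name is from that fit. Shifts are log2 CPM with a prior count of 2. Transcript features came from GENCODE M21 on GRCm38, which matched 27070 of 27710 genes.

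Same-numbered fed libraries of the 2 genotypes deviated together (r = 0.62, 0.27 and 0.16 for replicates 1 to 3), so the replicate block is given beside the results. The labels do not say what a number marks.

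Leading genes were the 15 per direction averaging 10 CPM or more with the largest minimum shift in any fed library, leaving out predicted genes and genes with a copy of 97% identity or more (BLAST+ 2.17.0). From each list up to 4 members with the smallest p were eligible to be named, and further members are named where a count is spelled out. The gene lists and the sets described were chosen with earlier results of these data known. The fit was tested on simulated counts drawn independently for each library. Those counts held no deviations shared by same-numbered libraries and no trend with base composition, so that test does not bear on either. Alternatives were RLE factors, other filters, DESeq2 1.42.0, each library left out, single genotypes, a prior count of 0.5, and an adjustment for GC content and length.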

Additional observations from a re-analysis of the deposited data

Results flagged for a closer look

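Reads that overlapped several genes were not used in any comparison. Their share was above both unlabelled libraries (0.662% in WT and 0.654% in Alkbh5-deficient cells) in all 6 fed libraries, from 0.748% in Alkbh5-deficient fed replicate 3 to 0.984% in WT fed replicate 3.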

How the results depend on the processing

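The 4 genes called became 37 with no filter on low counts (25 protein-coding, against 0), 619 in DESeq2 (572 protein-coding) and 0 within WT or within Alkbh5-deficient cells alone, and 0 to 2 when 1 library was left out. With the replicate block there were 1545 (1284 protein-coding), in DESeq2 with the block 1667 (1509 protein-coding), and after the GC and length adjustment with the block 1428 protein-coding. Without replicate 1, 2 or 3 of both genotypes the count was 1, 1 and 0. Genes lower in all fed libraries numbered 1538 after the adjustment, against 2352. The 82 genes higher by at least 0.5 became 36 after it, 4 with a smallest shift of 1, 93 to 167 without 1 fed library (128 without WT replicate 2, 167 without Alkbh5-deficient replicate 3) and 129, 187 and 202 without replicate 1, 2 or 3 of both genotypes. The 139 lower became 28 after the adjustment, 1 with a smallest shift of 1, 146 to 271 without 1 fed library (271 without Alkbh5-deficient replicate 3), and 263 and 295 without replicates 2 and 3 of both genotypes. Fewer libraries make the rule easier to meet. Otherwise the cause was not tested. Over the genes named, 0 fold changes turned sign in the alternatives run. Most of these genes were named for having the same direction in all fed libraries. That choice largely fixed this outcome in advance, so it is no separate support. List medians moved past their spread, the SD of the list's medians over the fed libraries, in 29 cases and not in 617. Lists that scatter widely between libraries can move far without being counted. The median of B lineage genes ran from -0.73 to 0.0021 over these alternatives with 0 moves counted. The median of stem and progenitor genes was -0.11 without WT fed replicate 3, against 0.06. Each condition without s4U has 1 library per genotype, which limits the precision of every value.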
